A study of Mus musculus with 480 samples.

Results

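Axonemal dyneins are the motors of motile cilia, and 34 genes for their chains, their docking, their spacing and their assembly were followed through single cells of the mouse lung. The members were the protein-coding genes whose symbols start with Dnah, Dnaic, Dnal or Dnaaf, together with Ccdc39, Ccdc40, Ccdc103, Ccdc114, Ccdc151, Zmynd10, Lrrc6, Dynlrb2, Armc4 and Ttc25, and all 34 were found among the 53379 genes of the count table. They comprised 5 outer arm heavy chains, 10 inner arm heavy chains, 6 intermediate or light chains, 5 docking or attachment genes, 2 ruler genes and 6 preassembly factors. The rule used gene symbols and no measured value.

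Beating of an airway cilium is driven by outer and inner dynein arms, which are rows of motor complexes fixed to the microtubule doublets of the axoneme. Heavy chains carry the motor, intermediate and light chains complete each arm, docking proteins anchor the outer arm, and the Ccdc39 and Ccdc40 pair sets the spacing of the repeat. The arms are put together in the cytoplasm by dedicated assembly factors before they enter the cilium, and loss of many of these genes causes primary ciliary dyskinesia.

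The 480 cells were lung epithelial cells, sorted singly, from 3 reporter lines with 160 cells each, spread over 5 plates. The line called BASCs-Tracer carried Sftpc-DreER, Scgba1a1-CreER (spelled so in the labels) and R26-RSR-LSL-tdtomato, a reporter that needs both recombinases. The line called Scgb1a1-TD carried Scgba1a1-CreER and R26-tdtomato, and the line called Sftpc-TD carried Sftpc-DreER and R26-RSR-tdtomato. All cells therefore came from mice with an inducible recombinase under a secretory or alveolar promoter, and the ciliated cells were those found among Scgb1a1-TD cells, not an unselected sample of airway cilia. Within each line the labels give every cell a sub-type: ciliated, club (secretory airway cells), AT2 (surfactant-making alveolar type II cells) or BASCs (bronchioalveolar stem cells). Age, induction treatment and animal are not given in the labels, so each line was counted as 1 sample. Differences between groups were therefore not tested and have no replicate check.

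Ciliated cells numbered 24 in Scgb1a1-TD, 5 on plate 2, 13 on plate 3 and 6 on plate 4, and 1 in BASCs-Tracer. They were set against 97 club cells and 38 BASCs of Scgb1a1-TD, the BASCs of BASCs-Tracer (all but 22 of its 160 cells) and the AT2 cells of Sftpc-TD (all but 11 of its 160 cells). The gene-assigned reads per cell ran from 3379 to 3781974 with a median of 1000465, and 12 cells had fewer than 100000. The 24 ciliated cells together held 22025351 reads, so that a gene with 0 reads there may lie at up to 0.136 CPM, where CPM is a gene's reads scaled to 1000000 gene-assigned reads. The sub-type labels may rest on the same counts, and the contrast of ciliated with other cells is therefore given as a description. All 16 ciliated markers outside the dynein set were at least 4-fold higher in the labelled ciliated than in the club cells of the same line, beside 23.2% of all measured genes, including Tppp3 at 2980 against 27.1 CPM and Rsph1 at 775 against 3.73 CPM.

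Stretches of promoter are shown for the 6 members that carry, within 100 bases upstream of the RefSeq start, a match to the binding motif of the RFX factors, which act on many ciliary genes. Capitals mark the match: the 14-base X-box, in which the arms GTNNCC and GGNAAC stand 2 bases apart (N is any base), in Ccdc151 and Dnaaf5, and the shorter GTTGCC in the others, each searched on both strands. A match to the longer motif can contain the shorter one. The stretches stop at the GENCODE start where that lies further upstream, except in Dnaaf5, where the match itself runs 8 bases past it.
Ccdc151: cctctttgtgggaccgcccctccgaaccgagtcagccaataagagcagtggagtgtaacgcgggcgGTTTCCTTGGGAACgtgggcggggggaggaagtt
Dnaaf5: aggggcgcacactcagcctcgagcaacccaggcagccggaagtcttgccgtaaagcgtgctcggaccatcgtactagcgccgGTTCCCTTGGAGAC
Dnah10: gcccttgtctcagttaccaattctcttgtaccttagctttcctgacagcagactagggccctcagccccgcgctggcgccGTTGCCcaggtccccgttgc
Dnaic2: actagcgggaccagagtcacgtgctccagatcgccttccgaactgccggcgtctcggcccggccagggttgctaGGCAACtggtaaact
Dynlrb2: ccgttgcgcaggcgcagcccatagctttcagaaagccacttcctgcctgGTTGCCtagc
Dnaaf2: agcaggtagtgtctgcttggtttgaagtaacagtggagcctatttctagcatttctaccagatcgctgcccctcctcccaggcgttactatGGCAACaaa

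In GRCm38 (RefSeq table of GRCm38.p6) these stretches lie at chr9:22002635-22002734 (minus strand) for Ccdc151, chr5:139150135-139150230 (plus) for Dnaaf5 and chr5:124724985-124725084 (plus) for Dnah10. Those of Dnaic2, Dynlrb2 and Dnaaf2 lie at chr11:114727319-114727407 (plus), chr8:116504915-116504973 (plus) and chr12:69198430-69198529 (minus). RefSeq gave a window of 300 bases, from 250 before to 50 after the start, for 29 of the 34 members. The motif GTTGCC was in 10 of these 29 windows, and in 12.5% of all 32851 windows of the table. The 10 include Dnah7a, Dnah7b and Dnah7c, which are closely related copies and may not be separate matches. The 14-base X-box was in 3 of the 29 (Ccdc151, Dnaaf5 and Zmynd10), and in 1.29% of all windows. The forkhead motif TGTTTAC, of the family that includes Foxj1, was in 1 of the 29, that of Dnah17, and in 3.65% of all windows. These matches are letters in a window and were not tested as binding sites.

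The dynein genes were high together in labelled ciliated cells. After summing the reads of each group, 31 of the 32 measured members (5 CPM or more in either group) were at least 4-fold higher in ciliated than in club cells of Scgb1a1-TD, on the scale of CPM with 1 added. The median log2 ratio of the measured members was 6.42. Most members passed the limit of 5 CPM only through the ciliated cells. Dnah14 and Dnah17 did not pass it, with 0 CPM in ciliated cells and 1.16 and 1.68 CPM in club cells. With no such limit 31 of all 34 members were 4-fold higher, with a median log2 ratio of 6.39. Over all 12011 measured genes 23.2% were 4-fold higher and 8.13% 4-fold lower, with a median of 0.74. The members' median was 7.38 on plate 2, 6.22 on plate 3 and 6.85 on plate 4, each of which held both groups, while the median of all genes was 0.06, 0.56 and 0.33. By role the medians ran from 6.08 for the 5 docking or attachment genes to 6.83 for the 9 measured inner arm heavy chains.

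**Figure D1:**
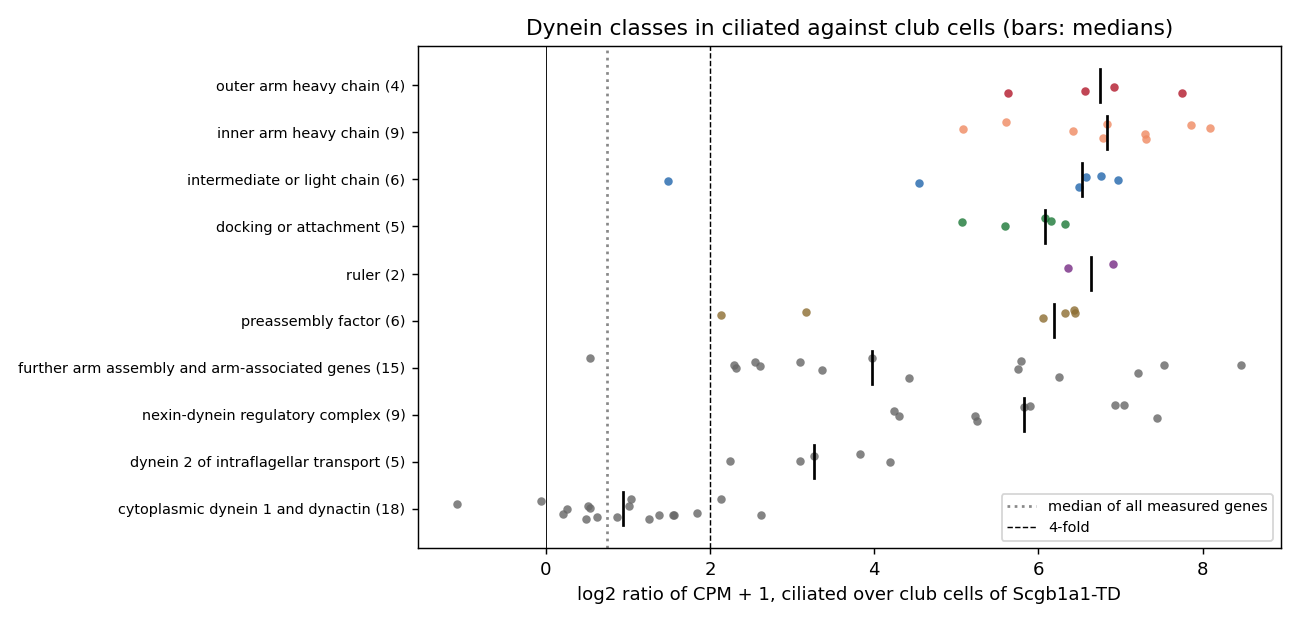
Log2 ratio of CPM with 1 added, ciliated over club cells of Scgb1a1-TD (x axis), for each measured gene (points) of the 6 dynein roles in colour and 4 related lists in grey (y axis, number of genes in brackets). Bars are medians, the dotted line is the median of all measured genes at 0.74 and the dashed line is 4-fold; the members lie far to the right apart from Dnal4, Dnaaf2 and Dnaaf5, while cytoplasmic dynein 1 and dynactin have a median of 0.94.

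Levels of different genes were compared per length, as reads per kilobase of merged exon on the CPM scale (RPKM), among the 24 ciliated cells. Dnah12, an inner arm heavy chain (chromosome 14, 26693274 to 26891703, plus strand), had the highest level of the 15 heavy chains. Its pooled level was 159.7 RPKM (95% Poisson interval 158.2 to 161.3, counting error only), and cells ran from 17.5 through a median of 123.9 to 405.8 RPKM. Dnah6 followed at 65.8 RPKM, with cells from 10.5 through 50.4 to 299.1. Dnah12 was above Dnah6 in 23 of the 24 cells, and its lowest plate was above the highest plate of Dnah6 (76.2 RPKM). Dnah3 came next at 42.6 RPKM, with cells from 8.94 through 36.02 to 151.9. All 3 of these inner arm chains had reads in every one of the 24 cells. The plates did not separate Dnah6 from Dnah3, whose plate levels ran from 39.8 to 70.2 RPKM.

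Outer arm heavy chains were led by Dnah5 and Dnah9, which both have human counterparts known from ciliary dyskinesia. Dnah5 (chromosome 15, 28203752 to 28472052, plus strand) stood at 34.7 RPKM, with cells from 5.11 through 27.5 to 102.7. Dnah9 (chromosome 11, 65831282 to 66168551, minus strand) stood at 32.3 RPKM, with cells from 2.44 through 33.1 to 120.7. Both had reads in all 24 cells, and Dnah5 was the higher in 13 cells and Dnah9 in 11. On plate 2 Dnah9 was above Dnah5 (49.9 against 22.4 RPKM), whereas on plate 4 Dnah5 was above Dnah9 (50.5 against 29.7 RPKM). The 2 were thus not separated by plate, and both lay above the next chain, Dnah10, on every plate apart from Dnah5 on plate 2. There Dnah5 stood at 22.4 and Dnah10 at 24.6 RPKM.

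Dnah11, the third outer arm chain with reads in all 24 cells, was lower at 14.6 RPKM, with cells from 0.0796 through 13.9 to 39.3, and Dnah5 exceeded it in 19 of 24 cells. The inner arm chains Dnah10 (16.2 RPKM), Dnah7a (15.3), Dnah2 (14.1), Dnah7c (10.98), Dnah7b (10.7) and Dnah1 (9.77) formed a group whose neighbours in order had overlapping plate ranges. Dnah7a, Dnah7b and Dnah7c are closely related copies on chromosome 1, and how the counting divided reads between them is uncertain.

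Dnah8, an outer arm chain best known from sperm, had reads in 4 of the 24 ciliated cells. Its pooled level was 1.95 RPKM, and 51.4% of its 1150 reads came from 1 cell at 586.8 CPM. The gene passed 4-fold against the pooled club cells (52.2 against 0.072 CPM), but its median ciliated cell was at 0. It stood at 0 RPKM on plate 2, against 2.38 RPKM on plate 3 and 1.64 RPKM on plate 4.

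**Figure D2:**
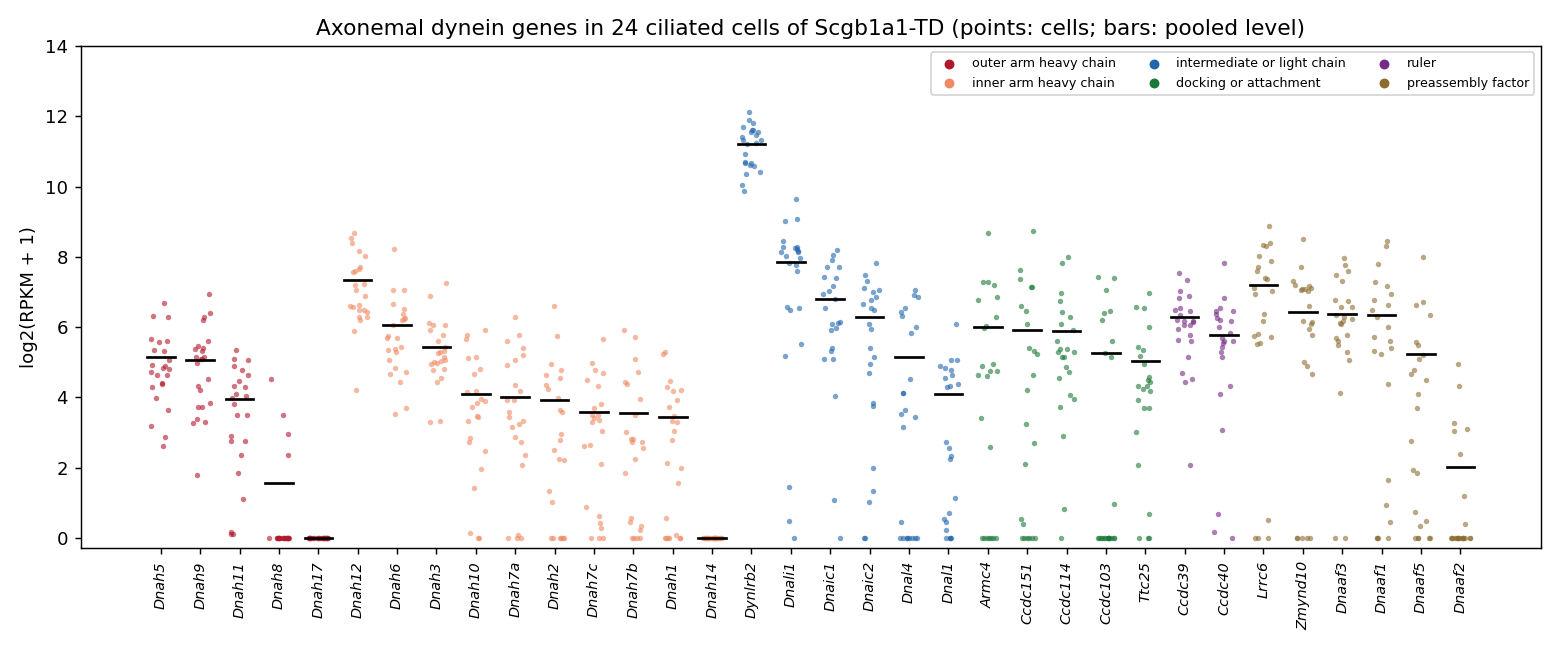
Level of each of the 34 genes (x axis, by role and in falling order) in the 24 ciliated cells of Scgb1a1-TD, as log2 of RPKM with 1 added (y axis). Points are cells and bars are pooled levels; Dynlrb2 stands highest, Dnah12 leads the heavy chains, and Dnah14 and Dnah17 are at 0 in every cell.

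Intermediate and light chains included the member with the highest level of all per length, Dynlrb2. Before division by length Dnah12 was the higher, at 1918 against 1317 CPM, with merged exons of 12009 and 556 bases. How evenly reads covered transcripts of such unlike length was not tested. Dynlrb2, a roadblock-type light chain (chromosome 8, 116504974 to 116515915, plus strand), was at 2369 RPKM (Poisson interval 2342 to 2396), with cells from 931.5 through 2491 to 4407. Every ciliated cell had at least 517.9 CPM of it, and its 3 plate levels ran from 2111 to 2796 RPKM. Dnali1, a light chain of inner arms, stood at 229.0 RPKM with reads in 23 cells. The outer arm intermediate chains Dnaic1 and Dnaic2 stood at 110.9 and 77.2 RPKM, and Dnaic1 was the higher in 15 of 24 cells. Their order rested on plate 3 (130.1 against 62.5 RPKM), since Dnaic2 was the higher on plate 2 (70.1 against 58.9) and plate 4 (110.4 against 86.6), and per longest transcript they stood at 122.9 and 122.8. Dnal1, an outer arm light chain, was at 16.2 RPKM with reads in 20 cells.

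Dnal4, a dynein light chain gene (chromosome 15, 79761453 to 79777849, minus strand), was the measured member that did not reach 4-fold against club cells. It stood at 82.2 CPM (interval 78.4 to 86.1) in ciliated and 28.7 CPM (27.7 to 29.8) in club cells, a log2 ratio of 1.48. Reads of it were found in 16 of 24 ciliated and 39 of 97 club cells, and the cells of the groups overlapped, from 0 to 314.8 CPM in ciliated and from 0 to 229.0 CPM in club cells. The plates differed: the log2 ratio was 3.67 on plate 2, 0.84 on plate 3 and 2.58 on plate 4. Without plate 3 it was 2.94, past 4-fold. In AT2 cells of Sftpc-TD, Dnal4 was at 28.4 CPM, close to its club level, and in the 11 BASCs of that line it was at 95.3 CPM, of which 55.8% came from 1 cell.

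Docking and attachment genes had pooled levels between 31.8 and 63.5 RPKM. In pooled RPKM they stood in the order Armc4 (63.5, reads in 17 of 24 cells), Ccdc151 (59.4, 18 cells), Ccdc114 (58.3, 23 cells), Ccdc103 (37.5, 10 cells) and Ttc25 (31.8, 21 cells), with plate ranges that overlapped. By the median cell Ccdc114 was instead the highest of these genes (38.5 RPKM, against 25.99 for Armc4 and 20.6 for Ccdc151). Per longest transcript Ccdc114 was also the highest (121.2, against 74.4 for Armc4 and 68.01 for Ccdc151). Ttc25 was above Ccdc103 on plate 3 (43.6 against 39.5 RPKM), by the median cell (19.02 against 0) and per longest transcript (45.1 against 38.4). Ccdc103 had a median of 0 over ciliated cells, yet it was read 1 time in the 97 club cells together, against 1559 reads in the 24 ciliated cells. Ccdc151 varied between plates, with 178.3 RPKM on plate 2, 69.1 on plate 3 and 2.04 on plate 4. The ruler gene Ccdc39 had reads in all 24 cells at 77.8 RPKM, with cells from 3.25 through 70.3 to 183.8. Its partner Ccdc40 stood at 53.4 RPKM with reads in 23 cells, and Ccdc39 was the higher in 17 of 24 cells. Plate 2 had the opposite order, with Ccdc40 at 94.3 and Ccdc39 at 44.5 RPKM.

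Preassembly factors were led by Lrrc6 at 146.4 RPKM, with reads in 21 cells and a cell median of 126.6. Zmynd10 (85.2 RPKM, 19 cells), Dnaaf3 (81.9, 22 cells) and Dnaaf1 (79.5, 20 cells) followed, with plate ranges that overlapped. Each of these 4 was at most 2.55 CPM in pooled club cells. Dnaaf5, which is also called Heatr2 (chromosome 5, 139150223 to 139186510, plus strand), was higher in ciliated cells, at 129.7 against 13.5 CPM, a log2 ratio of 3.17. It had reads in 19 of 24 ciliated and 26 of 97 club cells, and 39.1% of its ciliated reads came from 1 cell. Dnaaf2 was the lowest of the role at 10.3 against 1.57 CPM, with reads in 8 of 24 ciliated and 2 of 97 club cells. Its 4.39-fold ratio, a log2 ratio of 2.13, did not hold at 4-fold under 4 alternatives. The log2 ratio was 0.81 with 10 CPM added, 1.65 with median-of-ratios scaling, 1.76 with totals that leave out mitochondrial and the 10 leading genes, and 1.94 without plate 3. Dnaaf2 overlaps 3 other annotated genes, among them the protein-coding Gm49383 and Gm49384, and only 1 of the 3 lies on the other strand. The part that reads shared with these genes have in its low count was not tested.

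Reads of Dnah14 and Dnah17 were absent from all 24 ciliated cells, and neither reached 5 CPM in club cells. Dnah17, an outer arm heavy chain known from sperm (chromosome 11, 118021723 to 118130634, minus strand), was read in other cells instead. It stood at 14.99 CPM in BASCs of BASCs-Tracer, where 48 cells (34.8%) had a read. In AT2 cells of Sftpc-TD it was at 9.78 CPM, with 41 cells (27.5%). Within Scgb1a1-TD it was at 11.1 CPM in BASCs (8 of 38 cells) and at 1.68 CPM in club cells (11 of 97). In pooled reads, against the 3-read floor of the ciliated cells, Dnah17 was at least 110.1-fold lower there than in BASCs of BASCs-Tracer. Against club cells, where the gene was under 5 CPM and so not measured, the same bound was 12.3-fold. These bounds do not cover the spread between cells, and the club reads came from only 11 of 97 cells. The first bound rests mainly on plate 1 (21.9 CPM in those BASCs), which held none of the ciliated cells. On plate 2, which held both groups, Dnah17 was at 3.63 CPM in those BASCs. Thinned to 100000 reads per cell, it was found in 24.1% of BASCs of BASCs-Tracer (exact Clopper-Pearson 95% interval 17.1 to 32.2%), 15.5% of AT2 cells (10.1 to 22.4%) and 0 of 24 ciliated cells, which allows a share of up to 12.5% by a floor of 3 cells and up to 14.2% by the exact interval.

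Its level moved with the plate. Among BASCs of BASCs-Tracer, Dnah17 was at 21.9 CPM on plate 1 and 3.63 CPM on plate 2, and among BASCs of Scgb1a1-TD it was at 17.3 CPM on plate 3, 0.523 on plate 2 and 0 on plate 4. In the latter group 38.4% of its reads came from 1 cell. The gene overlaps Pgs1, which lies on the other strand, and the library kit named in the labels does not mark strand, so that reads of the 2 genes cannot be told apart where they overlap. Of the 34 members, 20 overlap a gene on the other strand. Dnah14 was at 2.57 CPM in BASCs of Scgb1a1-TD, where all its reads came from 1 cell, and at 1.16 CPM in club cells, from 5 cells.

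Relative to its own depth, each cell outside the ciliated sub-type held less of the whole set than any ciliated cell of Scgb1a1-TD. Summed over the 34 genes, the ciliated cells of Scgb1a1-TD ran from 5139 through a median of 11002 to 21858 CPM. The 455 cells outside the ciliated sub-type ran from 0 through 52.1 to 3709 CPM. In Scgb1a1-TD the medians were 50.9 CPM for club cells and 26.3 CPM for BASCs, whereas AT2 cells of Sftpc-TD had 57.6 CPM and BASCs of the tracer line 52.8 CPM. The 3 plates of ciliated cells had medians of 10413, 11216 and 12561 CPM.

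**Figure D3:**
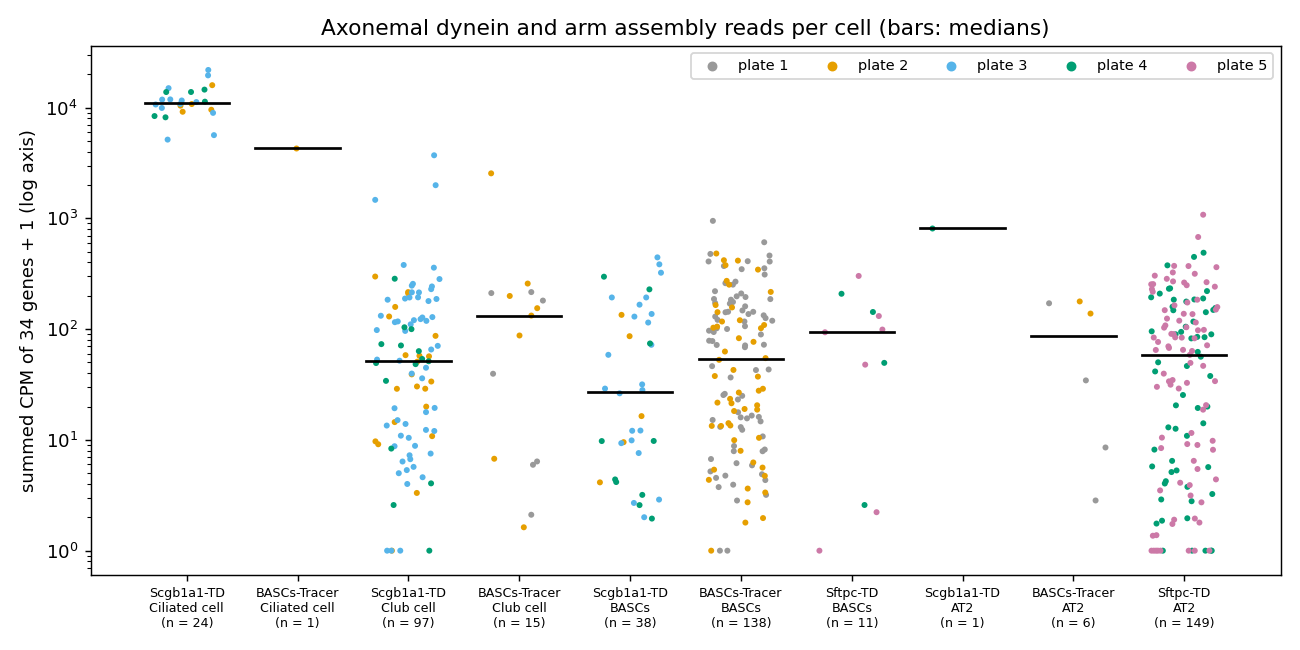
Summed CPM of the 34 genes with 1 added (y axis, log scale) in each of the 480 cells (points, coloured by plate), by line and sub-type (x axis, number of cells below each name); bars are medians. The 24 ciliated cells of Scgb1a1-TD sit between 5139 and 21858 CPM, above every other cell.

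Of the 455 outside cells, 5 held 1000 CPM or more of the members. The highest was the club cell of Scgb1a1-TD in well B1 of plate 3, at 3709 CPM with 26 members read. It held 233509 CPM of the 8 club markers and 11449 CPM of the 16 ciliated markers, against 10624 to 43838 CPM of the latter in the 24 ciliated cells. This cell supplied 34.4% of all member reads of the 97 club cells, including 95.9% of those of Dnaic2, 94.2% of Ccdc151 and 88.7% of Ccdc39. Without it the members' median log2 ratio against club cells was 6.97 in place of 6.42, and 31 members were 4-fold higher. A club cell of BASCs-Tracer followed at 2548 CPM from 47886 reads, then 2 club cells of Scgb1a1-TD with only 4519 and 6131 reads, and an AT2 cell at 1078 CPM.

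At the other end, the 2 ciliated cells with the lowest sums, in wells A7 (5139 CPM) and B8 (5639 CPM) of plate 3, held 291986 and 221720 CPM of club markers. The other 22 ciliated cells held from 2031 to 38668 CPM of these markers. Without these 2 cells the median log2 ratio against club cells was 6.52, with 31 members 4-fold higher. The part that club transcripts have in the lower sums was not tested.

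The well labelled as the 1 ciliated cell of BASCs-Tracer (plate 2, well H5) held 4324 CPM of the members, below all 24 ciliated cells of Scgb1a1-TD, with reads of 22 members. Dynlrb2 stood at 816.5 CPM, Dnah6 at 784.7, Dnah12 at 686.5 and Dnaic2 at 386.4 CPM in that well. Dnah5 was at 172.8 and Dnah9 at 23.6 CPM, whereas Dnah10, Dnah1, Armc4, Ccdc151, Dnaaf1, Dnaaf3 and Dnaaf5 had 0 reads. The same well held 235548 CPM of the 10 AT2 markers, against 851 to 17485 CPM in the ciliated cells of Scgb1a1-TD, with Sftpc at 95578 CPM. It held 105921 CPM of club markers. Foxj1 had 0 reads there and also in the ciliated cell of well A7, and was at 150.8 CPM in the club cell of well B1. Whether well H5 held more than 1 cell, and the part of these markers in its member level, was not tested.

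Detection per cell followed the same division. With every cell thinned to 100000 reads, ciliated cells had reads of a median of 25 of the 34 members (19 to 29), club cells of 2 (0 to 23), BASCs of Scgb1a1-TD of 1 (0 to 5), BASCs of BASCs-Tracer of 2 (0 to 6) and AT2 cells of 1 (0 to 5). With all reads, 8 members were read in every one of the 24 ciliated cells and 22 in at least 20. Dynlrb2 was often read outside the ciliated cells too. After thinning it was found in all 24 ciliated cells and in 22.3% of 94 club cells (14.4 to 32.1%). It was also found in 43.2% of 37 BASCs of Scgb1a1-TD (27.1 to 60.5%), 32.3% of BASCs of BASCs-Tracer (24.5 to 40.98%) and 32.4% of AT2 cells (24.98 to 40.6%). Unthinned, the shares of these 4 groups outside the ciliated cells were 67.01, 57.9, 65.9 and 47.7%. Dnah5, by contrast, was found in 8.51% of club cells, 2.70% of BASCs of Scgb1a1-TD, 2.26% of BASCs of BASCs-Tracer and 0.676% of AT2 cells after thinning. The median depths of these 4 groups were 1091938, 1092843, 778449 and 1114748 reads.

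**Figure D4:**
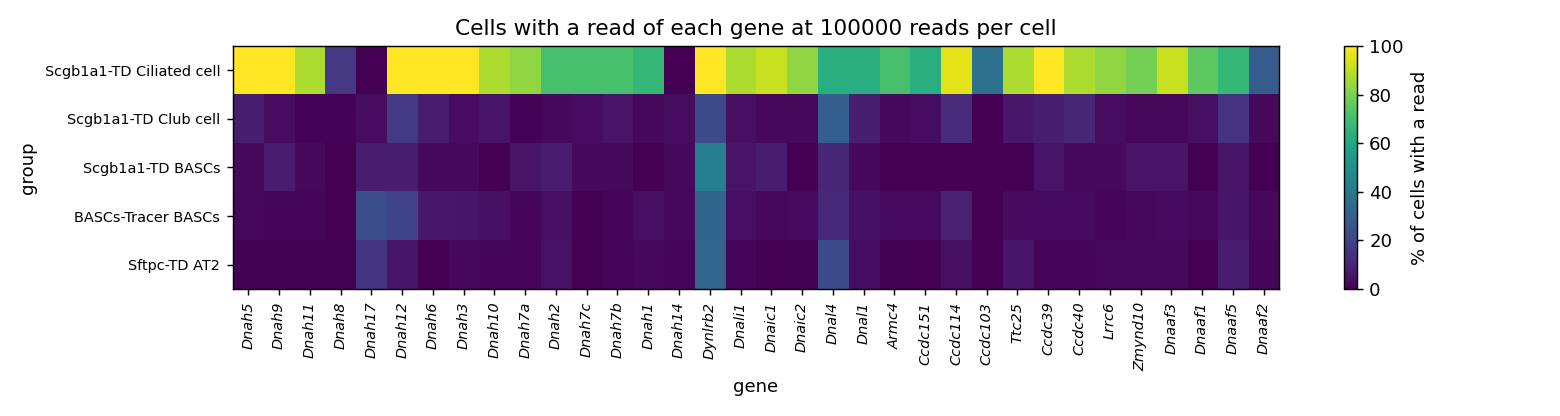
Percentage of cells with at least 1 read (colour) of each of the 34 genes (x axis) in 5 groups (y axis), after thinning each cell to 100000 reads. The row of ciliated cells is bright for most genes and dark for Dnah8, Dnah14, Dnah17 and Dnaaf2, while Dynlrb2, Dnal4, Dnah12 and Dnah17 are the columns with most colour in the other rows.

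Against BASCs of Scgb1a1-TD, which share the plates of the ciliated cells, 32 of 33 measured members were at least 4-fold higher in ciliated cells (30.8% of all 12068 measured genes were) and 1, Dnah17, was 4-fold lower (9.51% of all). The call of Dnal4, at a log2 ratio of 2.17, was lost with median-of-ratios scaling (1.43), with totals that leave out mitochondrial and the 10 leading genes (1.41), with 10 CPM added (1.75) and without plate 2 (1.95). The median log2 ratio of the members was 7.35, against 0.96 over all genes. Dnah12 stood at 1918 against 1.16 CPM and Dnah6 at 871.5 against 0.453 CPM. For 8 members every ciliated cell was above every BASC: Dnah3, Dnah5, Dnah6, Dnah9, Dnah11, Dnah12, Dynlrb2 and Ccdc39, where 0.323% of all measured genes had such a gap. The call of Dnah17 rested on plate 3, without which its log2 ratio was -0.10 in place of -3.60. Against club cells no member had every ciliated cell above every club cell (0.0167% of all genes did), and the club cell in well B1 was among those that overlapped.

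Against BASCs of BASCs-Tracer, 31 of 33 measured members were 4-fold higher in ciliated cells (24.1% of all 12272 genes), 1 was lower (10.7% of all) and Dnaaf2 lay within 4-fold, at 10.3 against 2.53 CPM. In those BASCs 98.1% of the Dnaaf2 reads came from 1 cell. The median of the members was 7.03, and 7.34 on plate 2, the only plate with both groups. On plate 2 alone 30 members were 4-fold higher. There Dnal1 lay within 4-fold, at 18.4 against 5.84 CPM (log2 ratio 1.51), and Dnah8 was at 0 CPM in both groups. On other plates line and plate cannot be told apart. Every ciliated cell was above every BASC of BASCs-Tracer for 5 members, Dnah3, Dnah5, Dnah6, Dynlrb2 and Ccdc39 (0.196% of all genes). Dnah1 stood at 8.41 CPM in these BASCs, of which 70.1% came from 1 cell, and Dnah2 at 6.30 CPM. The lower call of Dnah17 was lost without plate 1, where its log2 ratio was -2.21 against -4.00 with all plates; on plate 2 the gene was under 5 CPM in these BASCs and so not measured.

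Against AT2 cells of Sftpc-TD, 31 of 33 measured members were 4-fold higher in ciliated cells (24.2% of all 12216 genes), Dnah17 was lower (10.6% of all) and Dnal4 lay within 4-fold. The members' median was 7.47, and 6.83 on plate 4, which held both groups. For 6 members every ciliated cell was above every AT2 cell: Dnah3, Dnah5, Dnah6, Dnah9, Dnah12 and Dynlrb2 (0.221% of all genes). Ccdc151 had 0 reads in AT2 cells against 149.4 CPM in ciliated cells, at least 9571-fold higher by the 3-read floor of the AT2 group. That bound rests on plates 2 and 3, which held none of these AT2 cells. On plate 4, which held both groups, Ccdc151 stood at 5.12 CPM in ciliated cells, a log2 ratio of 2.61 with 1 CPM added. Dnaaf2 fell within 4-fold on plate 4, with a log2 ratio of 1.71. These comparisons share the ciliated cells and are not independent of each other.

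Genes near the pathway were counted from lists outside the membership rule, ciliated against club cells of Scgb1a1-TD. Of 15 measured further arm assembly and arm-associated genes, from a list of 20, 14 were 4-fold higher (23.2% of all measured genes were), with a median log2 ratio of 3.97. Those with most reads were Cfap44 (912.2 against 3.95 CPM), Cfap43 (680.1 against 11.3), Wdr78 (495.7 against 5.55) and Ruvbl2, a chaperone-like ATPase (463.8 against 53.3). The exception, Pih1d1, stood at 36.2 against 24.7 CPM. Pih1d3, Dyx1c1, Ccdc63 and Nme8 had 0 reads in both groups and so were not measured. Whether the counting missed reads of these genes was not tested. All 9 genes of the nexin-dynein regulatory complex, the linker between doublets that regulates the arms, were 4-fold higher, against the same 23.2% of all genes, with a median of 5.83, among them Drc3 (781.1 against 12.8 CPM), Drc1 (413.1 against 1.37), Iqcg (383.1 against 2.14) and Gas8 (208.5 against 4.49).

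Cytoplasmic dynein is the cargo motor of all cells. Of 18 measured genes of cytoplasmic dynein 1 and dynactin 2 were 4-fold higher, where 23.2% of all genes were, and 16 lay within 4-fold. Their median log2 ratio was 0.94 against 0.74 over all genes. By plate it was 1.09 against 0.06 on plate 2, 0.53 against 0.56 on plate 3 and 1.18 against 0.33 on plate 4. The higher ones were Dynll1, a light chain shared with other complexes (691.2 against 111.9 CPM), and Actr10 (112.2 against 24.8). Dync1i2 stood at 190.1 against 52.4 CPM and Pafah1b1 at 153.4 against 51.2. Dynlrb1, the roadblock relative of Dynlrb2, was at 169.0 CPM in ciliated and 120.3 CPM in club cells, a log2 ratio of 0.49 that is below the 0.74 of all genes, while Dynlrb2 had one of 6.49. All 5 genes of the retrograde motor of intraflagellar transport were 4-fold higher (23.2% of all genes), with a median of 3.26: Dync2h1 at 420.7 against 42.9 CPM, Dync2li1 at 292.3 against 33.4, Wdr60 at 238.8 against 15.9, Wdr34 at 202.1 against 10.1 and Tctex1d2 at 84.5 against 17.1.

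Among 7 regulators of ciliogenesis 6 were 4-fold higher in ciliated than in club cells, as were 23.2% of all genes. Foxj1, the forkhead factor of motile ciliogenesis, stood at 349.3 against 2.35 CPM, Rfx2 at 243.9 against 3.93, Rfx3 at 193.2 against 5.82 and Myb at 183.7 against 3.97. Gmnc, which acts early in the multiciliated programme, was at 18.3 CPM in ciliated and 19.6 CPM in club cells.

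From cell to cell the members showed little common order in these counts. Over the 24 ciliated cells, Pearson's r of log2 CPM with 1 added had a median of 0.01 across the 465 pairs of the 31 members with 50 CPM or more, and single pairs ran from -0.61 to 0.68. The median over all pairs of the 4240 genes at that level was 0.04. Across the 78 heavy chain pairs it was -0.03. The summed heavy chains and the summed preassembly factors had an r of 0.45 (Spearman's rho 0.43), and 0.30 (rho 0.27) without the 2 cells of wells A7 and B8. The cells share plates and libraries, and these correlations are descriptions over cells of 1 line. Only 8 members had reads in every ciliated cell, and no molecular identifiers are recorded. The part that cells with 0 reads have in the low r was not tested.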

How the data were processed

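The table holds counts of reads per gene for 480 single cells; per the submitters' processing notes HISAT2, HTSeq and GRCm38 were used, and no versions are given in the sources used here. These counts were deposited by the authors without normalization, and no molecular identifiers are recorded. The Poisson intervals therefore cover the counting of reads only, not of molecules, and not the spread between cells or plates. The table's first line has 1 name fewer than the columns, and the names were matched accordingly. Gene symbols, positions and merged exon lengths came from GENCODE M21 (GRCm38), and 105 genes (0.00513% of reads) had no symbol there.

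Reads were summed over the cells of a line and sub-type, scaled to CPM by all gene-assigned reads, and compared as log2 ratios with 1 CPM added. A gene was measured at 5 CPM or more in either group and called at 4-fold. No test was run, since each line is 1 sample. No doublet caller was run on these plate-sorted cells. RPKM used merged exon length. Shares of cells used 100000 reads per cell, leaving out shallower cells. The ratios were checked on simulated cells that shared the same profile apart from genes changed by a known fold. That fold was taken relative to the unchanged genes, which the ratios given here are not. The check therefore does not cover a shift of all genes between groups. Named genes were, per role, up to 4 with the highest RPKM and every member not called higher against club cells, and per outside list up to 4 with the highest CPM; Pih1d1, Actr10, Gmnc, Tctex1d2, the genes with 0 reads and members named for a gap or for single cells were named after their values were seen. The members and lists were chosen with earlier results of these data known. Alternatives changed the scaling, the CPM added, the filters, the fold limit, the plates and the cells. Python 3.11.15, numpy 2.4.6, pandas 2.3.3 and scipy 1.17.1 were used.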

Additional observations from a re-analysis of the deposited data

How the results depend on the processing

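No member's ratio reversed under the alternatives, and of 203 values of comparisons 20 moved. With 10 CPM added the members' median log2 ratios were 4.32 against club cells, 4.40 against BASCs of Scgb1a1-TD, 4.46 against BASCs of BASCs-Tracer and 4.46 against AT2 cells, and 0 members were 4-fold lower in the last 3, where Dnah17 had been. The 4-fold lower member was also lost (0) without plate 3 against BASCs of Scgb1a1-TD, and without plate 1 or on plates with both groups against BASCs of BASCs-Tracer. Against AT2 cells the median ran from 6.86 without plate 3 to 7.72 without plate 4, and was 6.83 on the plate with both groups. The median ciliated cell held 5218 CPM of heavy chains alone and 31343 CPM of the ciliated markers, for which 2 other cells reached the lowest ciliated cell. The median number of members detected was 20.5 in ciliated cells and 0 in BASCs of BASCs-Tracer at 10 reads, and, without thinning, 7 in club cells, 6 in BASCs of Scgb1a1-TD and 5 in BASCs of BASCs-Tracer. The cause of these shifts was not tested.

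Other scalings lowered the median ratio of all genes by 0.48 to 0.77 on the log2 scale. Against club cells 30 members were then 4-fold higher, without Dnaaf2, and Dnal4 was at 0.89 without mitochondrial and the 10 leading genes. Against BASCs of Scgb1a1-TD 31 were, without Dnal4. Leaving out the outside cell with most member reads, or the 2 ciliated cells rich in club markers, was added after seeing the data and changed no count of members called. Of 1726 single-member values 298 moved. The 24 ciliated cells come from 1 line, so the spread between animals is unknown. No paired test was run, since the labels name no animal and each line is 1 sample. Groups that share plates are compared by the values on each plate.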
